A study of Mus musculus with 12 samples.

Results

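The 9 genes described here encode transcription factors that set the fate of myeloid cells: Spi1, Cebpa, Irf8, Klf4, Irf4, Maf, Cebpe, Gfi1 and Cebpd. They were chosen by symbol among the 30702 gene symbols of a mouse whole-transcriptome array, and each was measured by 1 transcript cluster, the array's unit for a gene. Bone marrow monocytes and macrophages had been purified magnetically from 12 mice, 1 array per mouse, in 4 groups of 3 separate animals. The 6 mice with MEC1 had received these cells intravenously and were taken at 21 d (11 weeks of age, the early stage) or 31 d (13 weeks of age, the late stage). The 6 mice without MEC1 were age-matched and were taken at the same times. All 12 animals were Rag2-/-gamma c-/- on a BALB/c background, which lacks mature T, B and natural killer cells, and MEC1 is a human cell line derived from chronic lymphocytic leukaemia, so that the leukaemia is represented by 1 line in an immunodeficient host.

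Blood monocytes and neutrophils come from shared marrow progenitors, and their separation is governed by a small set of transcription factors. PU.1 (encoded by Spi1) and C/EBPα (Cebpa) serve the whole myeloid branch. IRF8 and KLF4 promote monocyte formation in the mouse, while GFI1 and C/EBPε (Cebpe) promote neutrophil formation and the late granule proteins.

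At 31 d, 6 of the 9 factors were lower with MEC1 by limma's test, and none was higher. Falls were common at that day: 21.1% of all tested clusters fell, and 51.9% to 56.6% of those at the level of Klf4, Irf8, Cebpa, Cebpd or Spi1 did. At the level of Maf 33.7% fell. The fall was deepest for Klf4, Irf8 and Cebpa, and Cebpd and, with less support, Spi1 and Maf also passed. At 21 d only Maf and Klf4 passed, where 2.51% of tested clusters fell, and 4.78% and 4.48% of those at the levels of Maf and Klf4. Of the granulocyte factors, Cebpd was thus among those that fell at 31 d, while Cebpe and Gfi1 did not pass at either day on the deposited scale. At 31 d Cebpe and Gfi1 each passed under at least 1 other scaling. In bulk samples such as these, fewer cells of a type and less RNA per cell cannot be told apart.

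The promoters of the 3 factors that fell most at 31 d, and that of Irf4, are printed to show the start regions of these genes and which searched motifs they hold. RefSeq promoter sequences (GRCm38.p6, 250 bases before to 50 after the start) matched 5 of the 9 factors, and Spi1, Maf, Cebpe and Cebpd are named only. Capitals mark letters of a searched motif, and each line runs 5′ to 3′ on the gene's strand. The windows are chr8:120736108-120736407 (plus strand) for the first of 2 Irf8 promoters, chr4:55532426-55532725 (minus strand) for Klf4, chr7:35119043-35119342 (plus strand) for Cebpa and chr13:30748983-30749282 (plus strand) for Irf4.
Irf8: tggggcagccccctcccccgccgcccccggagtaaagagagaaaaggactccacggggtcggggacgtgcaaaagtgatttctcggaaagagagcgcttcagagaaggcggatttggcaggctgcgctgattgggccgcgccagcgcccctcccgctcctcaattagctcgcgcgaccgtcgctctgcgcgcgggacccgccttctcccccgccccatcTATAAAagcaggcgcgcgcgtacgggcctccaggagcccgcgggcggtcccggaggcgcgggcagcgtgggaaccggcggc
Klf4: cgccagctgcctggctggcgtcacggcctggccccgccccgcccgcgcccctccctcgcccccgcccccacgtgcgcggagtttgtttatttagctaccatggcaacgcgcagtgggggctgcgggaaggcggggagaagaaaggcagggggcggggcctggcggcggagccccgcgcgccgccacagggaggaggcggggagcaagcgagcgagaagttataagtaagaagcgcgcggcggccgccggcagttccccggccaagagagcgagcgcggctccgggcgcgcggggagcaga
Cebpa: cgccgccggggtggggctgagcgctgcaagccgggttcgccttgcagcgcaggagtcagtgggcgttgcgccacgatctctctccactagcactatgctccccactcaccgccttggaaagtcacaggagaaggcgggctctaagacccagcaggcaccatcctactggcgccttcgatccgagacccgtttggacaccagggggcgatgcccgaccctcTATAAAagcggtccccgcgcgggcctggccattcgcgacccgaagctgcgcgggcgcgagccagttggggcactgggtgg
Irf4: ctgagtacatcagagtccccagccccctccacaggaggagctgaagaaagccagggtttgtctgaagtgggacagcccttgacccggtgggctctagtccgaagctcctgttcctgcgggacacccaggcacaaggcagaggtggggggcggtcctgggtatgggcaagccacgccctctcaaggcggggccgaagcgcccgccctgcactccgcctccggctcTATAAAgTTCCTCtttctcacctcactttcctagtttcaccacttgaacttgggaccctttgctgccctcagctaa
The search covered 4 motifs on both strands: GAGGAA (the PU.1 core), TTNCNNAA (C/EBP), GAAANNGAA (interferon regulatory factors) and TATAAA (the TATA box). TATAAA stood 31 bases before the Irf8 start, 30 before that of Cebpa and 26 before that of Irf4, and 13.6% of 32851 promoters hold it. Irf4 also held GAGGAA on the opposite strand, read as TTCCTC from 19 bases before the start, and 28.3% of promoters hold these letters. Klf4 held none of the 4 motifs. TTNCNNAA was found in 40.7% of all promoters and GAAANNGAA in 8.56%, and neither was in the printed windows. A match is a description of letters, and nothing about binding was measured.

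Values below are deposited log2 intensities, so that a difference of 1 is a doubling, and values of different genes cannot be ranked because their probes differ. Changes are MEC1 minus no MEC1, and adjusted p-values come from limma over all 37240 tested clusters. The median change over all tested clusters was 0.02 at 21 d and 0.04 at 31 d. The median level of an array was higher with MEC1, at 4.06 against 3.86 at 21 d and 4.24 against 3.81 at 31 d (means of 3 arrays). The 4 hybridisation controls, labelled control transcripts added to each sample before hybridisation, also read higher with MEC1: 11.8 to 12.0 against 10.7 to 10.9 at 21 d, and 12.2 to 13.2 against 10.5 to 10.7 at 31 d. These groups did not overlap, and 92.2% of the variance of the controls lay between the 4 groups, so that this level and MEC1 cannot be told apart. With the control level as a covariate none of the 9 factors passed at either day. The third mouse with MEC1 at 31 d stood apart, with the highest control level, and was the lowest of its group's 3 mice in 7 of the 9 factors, so results are also given without it where it matters.

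Klf4 encodes a zinc-finger factor needed for monocyte formation. The gene lies at chr4:55527137-55532475 (GRCm38.p6). At 21 d it read 10.59, 11.86 and 12.09 in the mice with MEC1 against 12.76, 13.32 and 13.84 in those without. The 31 d values were 9.64, 9.50 and 8.82 with MEC1 against 12.17, 12.82 and 13.04 without. Every MEC1 mouse was below every mouse without MEC1 at both days, and the gap at 31 d was 2.53 log2 units wide. The change was -1.79 at 21 d (95% interval -2.72 to -0.87, adjusted p = 0.0411, 3.47-fold lower) and -3.36 at 31 d (-4.28 to -2.43, adjusted p = 0.000559, 10.2-fold lower). Clusters of a like level without MEC1 (within 0.5 log2) had a median change of -0.26 at 21 d and -1.02 at 31 d. The call at 31 d held when any of the 12 arrays was left out. That at 21 d was lost without the filter on dim clusters (adjusted p = 0.0554) and with the 6 arrays of that day alone (adjusted p = 0.101). It held in 5 of these 12 fits and was lost, with adjusted p up to 0.138, without the second or the third mouse of the 21 d controls, the first or the second with MEC1 at 21 d, the second or the third of the 31 d controls, or the second with MEC1 at 31 d.

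Irf8 encodes the interferon regulatory factor that directs progenitors to monocytes and dendritic cells. The gene lies at chr8:120736358-120756694, from the start whose promoter is printed above. At 21 d Irf8 read 9.75, 10.67 and 10.76 with MEC1 against 10.36, 11.41 and 11.38 without. The 31 d values were 9.39, 9.03 and 8.16 with MEC1 against 11.48, 11.47 and 11.48 without. The groups overlapped at 21 d through the low first control mouse and were apart at 31 d, where the controls hardly differed. At 31 d Irf8 fell by 2.62 (interval -3.45 to -1.78, adjusted p = 0.00088, 6.13-fold lower), and 55.8% of the 749 clusters of like level also fell, with a median of -1.06. At 21 d the change was -0.66 (interval -1.49 to 0.18, adjusted p = 0.314), which did not pass and moved to -0.34 without the first MEC1 mouse of that day. All 12 fits without 1 array kept the call at 31 d.

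Cebpa encodes C/EBPα, which granulocyte-monocyte progenitors require, and lies at chr7:35119293-35121928. It read 9.12, 9.55 and 10.44 with MEC1 at 21 d against 11.03, 11.43 and 11.28 without. It read 9.30, 9.49 and 7.72 with MEC1 at 31 d against 11.22, 11.26 and 11.50 without. The groups were apart at both days, although the MEC1 mice scattered widely, with an SD of 0.673 at 21 d and 0.972 at 31 d against 0.202 and 0.151 without MEC1. The fall at 31 d was -2.49 (interval -3.45 to -1.53, adjusted p = 0.00207, 5.62-fold), and it passed without any 1 of the 12 arrays. At 21 d the change of -1.54 missed the threshold (interval -2.51 to -0.58, adjusted p = 0.0714). It passed without the third MEC1 mouse of 21 d (-1.91, adjusted p = 0.0314) or of 31 d (adjusted p = 0.0173).

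Spi1 encodes PU.1, on which both monocytes and granulocytes depend, and lies at chr2:91082374-91115759. Its level was 7.41, 7.80 and 7.80 with MEC1 at 21 d against 7.68, 8.38 and 8.18 without. At 31 d it was 7.55, 7.62 and 6.53 with MEC1 against 8.24, 8.03 and 7.87 without. The groups overlapped at 21 d and were apart at 31 d, by a gap of 0.25, with the third MEC1 mouse lowest. The change was -0.41 at 21 d (interval -1.05 to 0.23, adjusted p = 0.404) and -0.81 at 31 d (interval -1.45 to -0.17, adjusted p = 0.0421), close to the -0.87 of clusters of like level. The 31 d call held in 6 of 12 fits without 1 array: it was lost without the third MEC1 mouse of 31 d (-0.46, adjusted p = 0.142), without any 31 d control (adjusted p 0.0643 to 0.115), without the second MEC1 mouse of 21 d (0.0547) or the third control of 21 d (0.055). It was also lost after quantile normalization (-0.21, adjusted p = 0.559), with array weights (-0.48, adjusted p = 0.0532) and with the 6 arrays of that day alone (adjusted p = 0.0772).

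Maf encodes c-Maf, a factor of mature macrophages, and lies at chr8:115703253-115706894. It read 5.25, 5.36 and 5.47 with MEC1 at 21 d against 6.47, 6.61 and 6.78 without. With MEC1 at 31 d it read 5.77, 6.10 and 5.68, against 6.45, 6.65 and 6.11 without. At 21 d the groups were a full log2 unit apart with little scatter, and at 31 d only 0.01 separated the highest MEC1 mouse and the lowest control. Maf fell by 1.26 at 21 d (interval -1.65 to -0.87, adjusted p = 0.00626, 2.40-fold lower), against a median of -0.28 for clusters of like level, and the call held in all 12 fits without 1 array. Its change at 31 d was -0.55 (interval -0.95 to -0.16, adjusted p = 0.0286), near the -0.45 of clusters of like level. The 31 d call was lost after quantile normalization (-0.26, adjusted p = 0.300), with array weights (-0.32, adjusted p = 0.103), with the 6 arrays of that day alone (adjusted p = 0.0683), and without the first or the third MEC1 mouse or the first or the second control of 31 d (adjusted p 0.066 to 0.110).

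Irf4 encodes an interferon regulatory factor used by some dendritic cells and macrophages and by B and plasma cells, and lies at chr13:30749233-30766981. It read 5.02, 4.96 and 4.78 with MEC1 at 21 d against 6.17, 5.89 and 5.27 without. At 31 d its values were 4.72, 4.76 and 5.11 with MEC1 against 5.24, 5.43 and 5.36 without. The groups did not overlap at either day, yet neither change passed: -0.86 at 21 d (interval -1.33 to -0.38, adjusted p = 0.0511) and -0.48 at 31 d (interval -0.96 to -0.0035, adjusted p = 0.0909). After quantile normalization both passed (-0.76, adjusted p = 0.0484, and -0.60, adjusted p = 0.029). Without the third 21 d control both passed as well (-1.11, adjusted p = 0.0261 at 21 d; adjusted p = 0.0387 at 31 d), and at 21 d so did the fit without the third MEC1 mouse of 31 d (adjusted p = 0.0388).

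**Figure D1:**
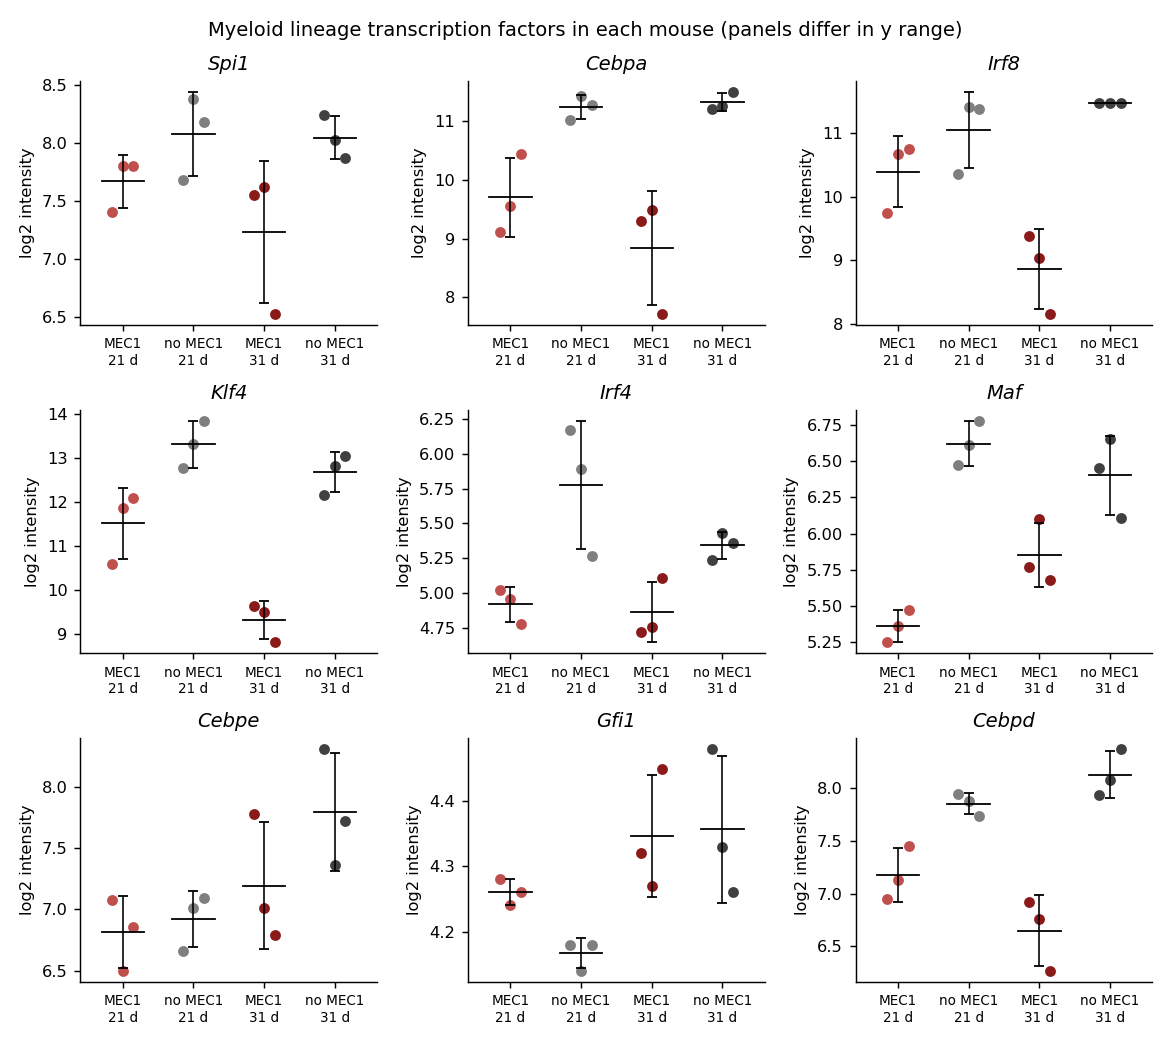
Log2 intensity of the 9 factors in each of 12 mice (points), with the group mean (bar) and SD (error bar, n = 3), MEC1 left of no MEC1 at 21 d and at 31 d. Klf4 with MEC1 at 31 d lay at 8.82 to 9.64 against 12.17 to 13.04 without, and the 4 groups of Gfi1 lay between 4.14 and 4.48.

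Among the granulocyte factors, Cebpd encodes C/EBPδ, which acts in later granulocytes and in inflamed macrophages, and lies at chr16:15887286-15889545. It read 6.95, 7.13 and 7.45 with MEC1 at 21 d against 7.94, 7.88 and 7.74 without. Values at 31 d were 6.92, 6.76 and 6.27 with MEC1 against 7.93, 8.08 and 8.37 without. MEC1 mice were below all controls at both days. Cebpd fell by 1.48 at 31 d (interval -1.93 to -1.03, adjusted p = 0.000719, 2.78-fold lower, median of like clusters -0.87), in all 12 fits without 1 array. The -0.68 at 21 d did not pass (interval -1.13 to -0.23, adjusted p = 0.084), but did without the third MEC1 mouse of 21 d (-0.81, adjusted p = 0.0491) or of 31 d (adjusted p = 0.0434).

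Cebpe encodes C/EBPε, needed for terminal granulocyte maturation and secondary granule genes, and lies at chr14:54710363-54712174. It read 7.08, 6.50 and 6.86 with MEC1 at 21 d against 6.66, 7.01 and 7.09 without. Values at 31 d were 7.78, 7.01 and 6.79 with MEC1 against 8.31, 7.36 and 7.72 without. The groups overlapped at both days, and the changes of -0.11 (interval -0.77 to 0.56, adjusted p = 0.845) and -0.60 (interval -1.27 to 0.06, adjusted p = 0.121) did not pass. After quantile normalization their signs turned, to 0.22 and 0.01. Centred on the array medians the 31 d change was -1.03 (adjusted p = 0.0283), and without the first MEC1 mouse of 31 d it was -0.90 (adjusted p = 0.0296). Without the first control of that day it was -0.35 (adjusted p = 0.373), and with array weights -0.64 (adjusted p = 0.0453).

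Gfi1 encodes a zinc-finger repressor that favours neutrophils over monocytes, and lies at chr5:107716655-107725805. It read 4.28, 4.24 and 4.26 with MEC1 at 21 d against 4.18, 4.14 and 4.18 without. At 31 d it read 4.32, 4.27 and 4.45 with MEC1 against 4.48, 4.33 and 4.26 without. All 3 MEC1 mice were above the controls at 21 d, by a small step, and the groups overlapped at 31 d. Over the 12 arrays these dim values lay between the 51.7th and the 65.6th percentile. The changes were 0.09 (interval -0.17 to 0.36, adjusted p = 0.653) and -0.01 (interval -0.28 to 0.26, adjusted p = 0.951). Clusters of like level had median changes of 0.19 at 21 d and 0.32 at 31 d, the latter above the interval of Gfi1. Against the array medians, however, Gfi1 changed by -0.11 at 21 d and -0.44 at 31 d, and the change at 31 d passed (adjusted p = 0.018). On that scale all tested clusters had median changes of -0.18 and -0.39, near those of Gfi1. The 31 d change also passed after quantile normalization (-0.39, adjusted p = 0.0435), so that the result for Gfi1 depends on the scaling.

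Read as a set, 8 of 9 changes were negative at 21 d and 9 of 9 at 31 d, with medians of -0.68 and -0.81. Clusters of like level had negative median changes too, for every factor but Gfi1. Those medians ran from -0.16 to -0.45 at 21 d and from -0.13 to -1.07 at 31 d, so the direction is shared with other clusters of these levels. Maf and Klf4, 2 of the 9 factors, fell at 21 d, where 2.51% of all tested clusters fell, and 4.78% and 4.48% of those at their levels. At 31 d 6 of 9 fell, where 21.1% of all tested clusters did. The 21 d count was 5 without the third MEC1 mouse of 31 d and 4 without the third MEC1 mouse of 21 d. It was 1 without the second 21 d control, the first or the second MEC1 mouse of 21 d, the second or the third 31 d control, or the second MEC1 mouse of 31 d. The 31 d count was 4 without the third MEC1 mouse, the first control or the second control of that day. All 3 MEC1 mice were below all 3 controls in 5 factors at 21 d, against 13.7% of tested clusters, and in 7 factors at 31 d, against 28.4%. At the levels of Klf4, Irf8, Cebpa, Cebpd and Spi1, falls at 31 d were more common than over the whole array, at 51.9% to 56.6% of clusters. At the level of Maf the share was 33.7%. With arrays centred on their medians, 3 of the 9 factors fell at 21 d, where 1461 of the 37240 tested clusters fell. On that scale 9 of 9 fell at 31 d, where 13739 clusters fell and the median change of all tested clusters was -0.39.

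**Figure D2:**
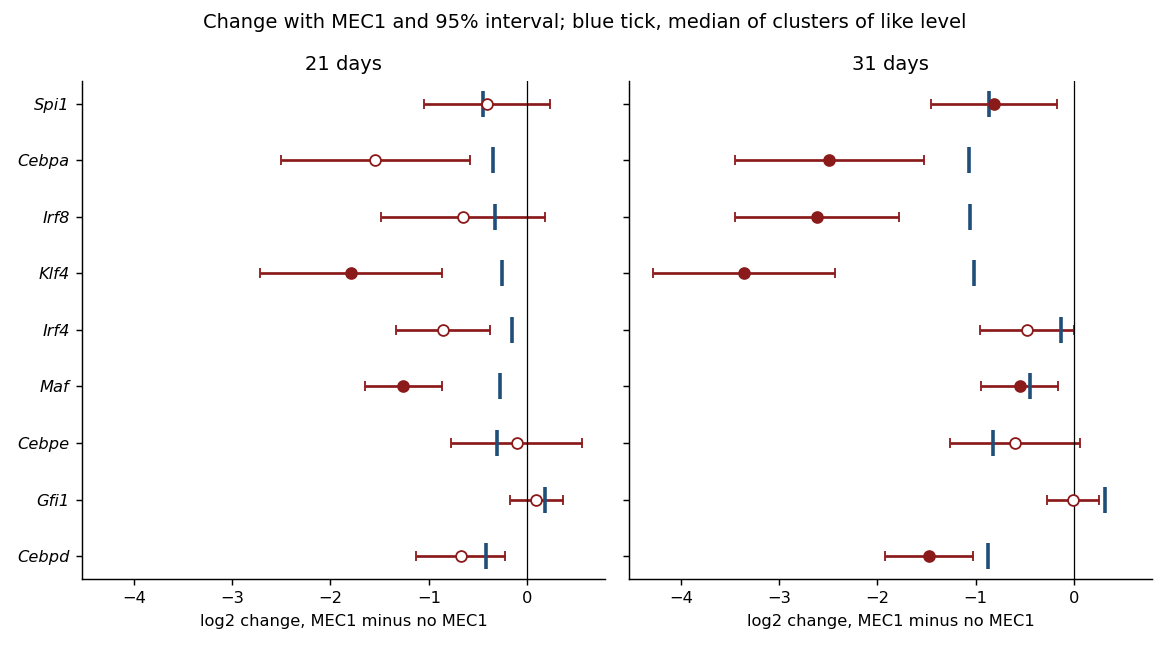
Change of each factor with MEC1 (log2, MEC1 minus no MEC1) at 21 and 31 d, with its 95% interval (n = 3 mice per group), filled where limma's adjusted p was under 0.05, and with a blue tick at the median change of clusters of like level. At 31 d the intervals of Klf4, Irf8, Cebpa and Cebpd lay below their ticks of -1.02, -1.06, -1.07 and -0.87. That of Gfi1 lay below its tick of 0.32, and those of Spi1 and Maf spanned theirs.

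**Figure D3:**
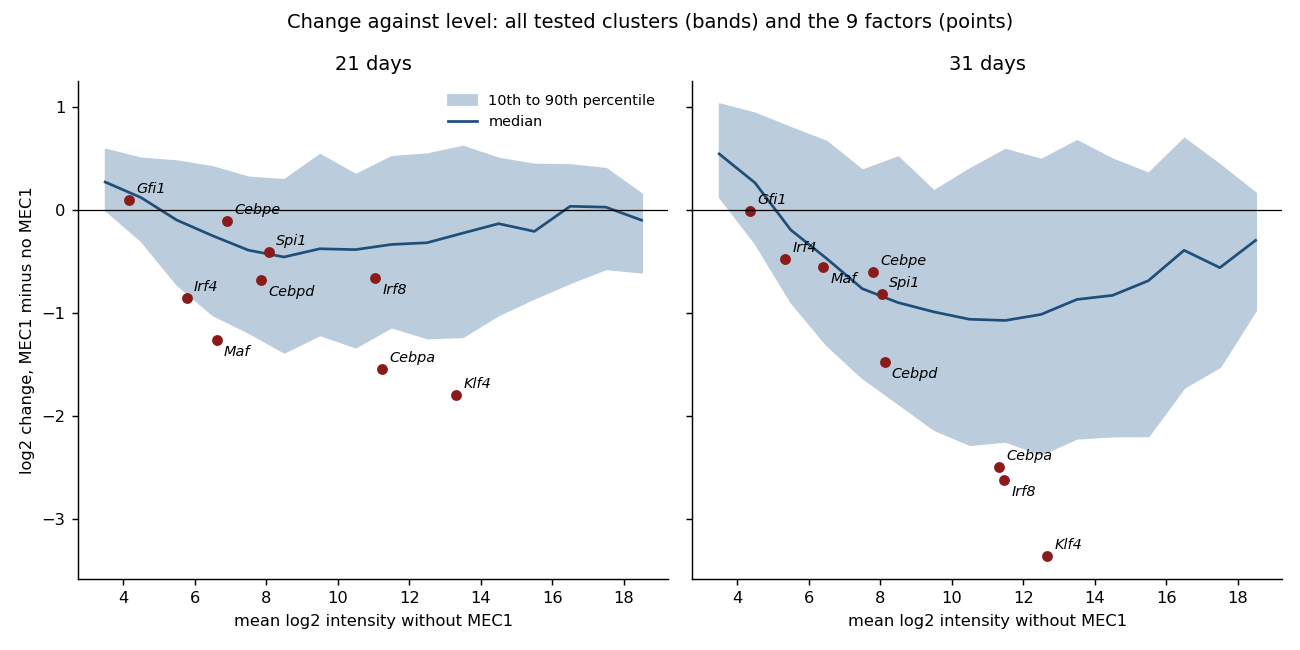
Change with MEC1 (log2) against the mean log2 intensity without MEC1, for the 9 factors (points) and for all tested clusters in steps of 1 log2 unit (line, median; band, 10th to 90th percentile). At 31 d Klf4 at -3.36 lay under the band of its level, whose 10th percentile was -2.37, and Spi1 at -0.81 lay near the median.

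The monocyte factors were set against the granulocyte factors in each mouse as the mean of Irf8, Klf4, Irf4 and Maf minus that of Cebpe, Gfi1 and Cebpd, a description with no test. This difference was 1.55, 2.26 and 2.09 with MEC1 at 21 d against 2.68, 2.96 and 2.98 without. At 31 d it was 1.04, 1.33 and 1.11 with MEC1 against 1.93, 2.50 and 2.21 without. It was lower in every MEC1 mouse at both days, by 0.91 at 21 d and 1.06 at 31 d. The monocyte factors averaged 7.22 ± 0.244 with MEC1 at 31 d and 8.98 ± 0.130 without (SD, n = 3 each). The granulocyte factors averaged 6.06 ± 0.255 with MEC1 at 31 d and 6.76 ± 0.160 without, so both sets were lower. Of the 12 pairs of 1 monocyte and 1 granulocyte factor, the pair difference was lower with MEC1 in 11 at 21 d and in 8 at 31 d. All 3 MEC1 mice were below all controls in 7 of the pairs at 21 d and in 8 at 31 d. Each factor recurs in several pairs, so the pairs are not separate results, and no share over other pairs of clusters was computed. Of the 12 pairs 4 contain Gfi1, whose own level hardly moved on this scale. Among the other 8 the difference was lower in 7 at 21 d and in 4 at 31 d, with all 3 MEC1 mice below all controls in 4 at each day. Without Gfi1, a choice made after seeing the data, the difference of the 2 means changed by -0.75 at 21 d and -0.71 at 31 d. The 4 exceptions at 31 d paired Irf4 or Maf with Cebpe or Cebpd, the highest being Irf4 minus Cebpd at 1.00. All 6 pairs with Klf4 or Irf8 were lower with MEC1 at 31 d. Irf8 minus Cebpa averaged 0.69 with MEC1 at 21 d and -0.20 without, with groups apart (0.32 to 1.12 against -0.67 to 0.10). At 31 d it averaged 0.02 with MEC1 and 0.15 without, with groups that overlapped.

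**Figure D4:**
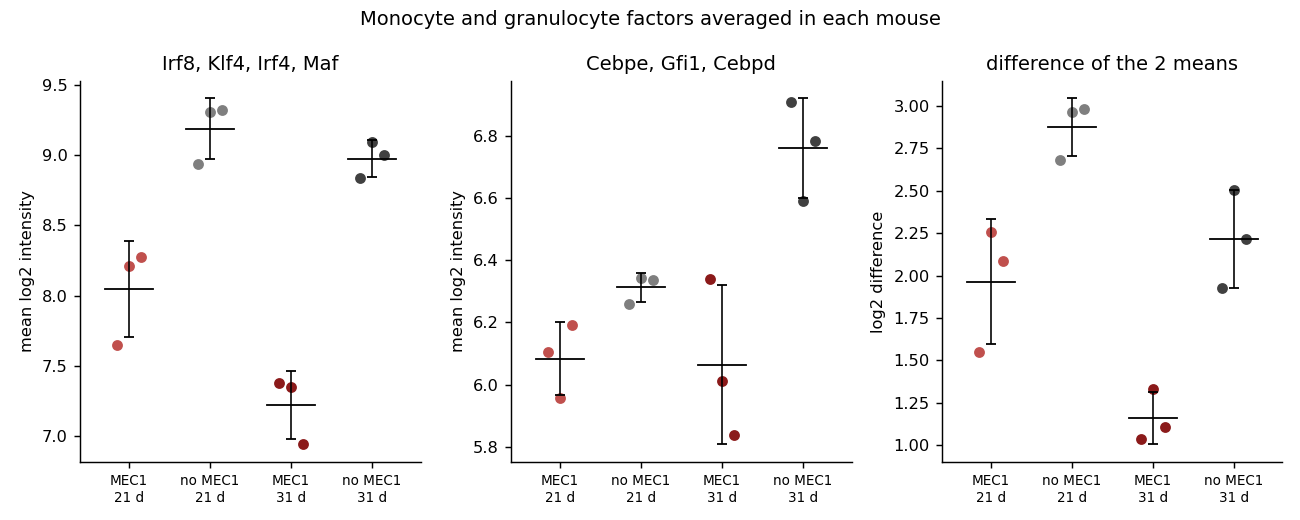
Mean log2 intensity of the monocyte factors and of the granulocyte factors in each mouse, and their difference (points, mice; bar, mean; error bar, SD, n = 3), MEC1 left of no MEC1 at each day. The difference at 31 d was 1.04 to 1.33 with MEC1 and 1.93 to 2.50 without.

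The effect of MEC1 at 31 d was tested against that at 21 d in an interaction contrast, which none of the 9 factors passed, and which 0.00269% of clusters passed (1 cluster). At an unadjusted p under 0.05 there were 4 factors, where 12.9% of clusters reached that level. The effect was more negative at 31 d for Irf8 (-1.96, interval -3.14 to -0.78, adjusted p = 0.329), Klf4 (-1.56, adjusted p = 0.352) and Cebpd (-0.80, adjusted p = 0.345), and less negative for Maf (0.71, adjusted p = 0.344). With array weights, where 4.22% of clusters passed, so did Irf8 (-1.78, adjusted p = 0.0204), Klf4 (-1.65, adjusted p = 0.0455) and, in the other direction, Maf (0.97, adjusted p = 0.0325). With trend and robust moderation none did.

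Among the mice with MEC1, 31 d against 21 d, none of the 9 factors passed, where 0.226% of clusters did. Klf4 averaged 9.32 ± 0.439 at 31 d and 11.51 ± 0.808 at 21 d, a change of -2.19 (interval -3.12 to -1.27, adjusted p = 0.0737), and no 31 d mouse reached a 21 d one. That change passed after quantile normalization (-1.74, adjusted p = 0.0475), and without the first 21 d mouse (-2.66, adjusted p = 0.0281). Irf8 changed by -1.53 (adjusted p = 0.116), Cebpd by -0.53 (adjusted p = 0.236) and Maf by 0.49 (adjusted p = 0.212), each with an unadjusted p under 0.05, as Klf4 had, a level that 17.3% of clusters reached. With array weights, where 20.8% of clusters passed, so did Klf4 (-2.33, adjusted p = 0.00104), Irf8 (-1.59, adjusted p = 0.00164) and Maf (0.65, adjusted p = 0.0105). Among the mice without MEC1, 31 d against 21 d, none passed either, where 0.00806% of clusters did. Only Cebpe had an unadjusted p under 0.05, which 6.54% of clusters had, so 1 of 9 is near the share over all clusters. It averaged 7.80 ± 0.480 at 31 d and 6.92 ± 0.229 at 21 d, a difference of 0.88 (interval 0.21 to 1.54, adjusted p = 0.542).

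Over the 4 groups, the order of levels differed between the factors. Klf4 was highest in the 21 d controls (mean 13.31), followed by the 31 d controls (12.68), whose ranges overlapped, and then by MEC1 at 21 d (11.51) and at 31 d (9.32), each clear of its neighbour. Irf8 was highest in the 31 d controls (11.48), just above the range of the 21 d controls (11.05), which overlapped MEC1 at 21 d (10.39), and MEC1 at 31 d (8.86) lay below them all. For Cebpa both control groups (11.33 at 31 d, 11.25 at 21 d) overlapped, as did MEC1 at 21 d (9.70) and at 31 d (8.84). For Cebpd the controls (8.13 at 31 d, 7.85 at 21 d) overlapped, and MEC1 at 21 d (7.18) and at 31 d (6.65) were just apart.

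Maf differed from these in being lowest with MEC1 at 21 d (5.36), clear of MEC1 at 31 d (5.85), below overlapping controls of 6.62 at 21 d and 6.40 at 31 d. Irf4 had 2 overlapping control groups above 2 overlapping MEC1 groups, and for Spi1 every neighbour in the order of means (8.08 in the 21 d controls, 8.05 in the 31 d controls, 7.67 with MEC1 at 21 d, 7.23 with MEC1 at 31 d) overlapped except the 31 d controls and MEC1 at 21 d. For Cebpe every neighbour in the order overlapped, with the 31 d controls (7.80) first and MEC1 at 21 d (6.81) last. For Gfi1 the 21 d controls (4.17) were lowest and clear of the next group, and the other neighbours overlapped.

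Other factors of these lineages were read from lists of related genes. Of 11 tested factors of monocytes and macrophages, 4 fell and none rose at 21 d (median -0.87), and 6 fell and 1 rose at 31 d (median -0.83). Nr4a1, an orphan nuclear receptor needed for Ly6C-low monocytes, changed by -3.07 at 31 d (9.65 ± 0.341 with MEC1 and 12.7 ± 0.988 without, SD, n = 3 each, adjusted p = 0.00255). Irf5, an interferon regulatory factor of inflammatory macrophages, changed by -2.12 (adjusted p = 0.000752), and Nr1h3, the sterol receptor LXRα, rose by 1.22 (adjusted p = 0.00138). Of 11 tested granulocyte and progenitor factors, 1 fell at 21 d (median -0.41) and 7 fell at 31 d (median -0.74), and none rose. The largest of these falls were in Myb, a progenitor factor (-2.54, adjusted p = 0.00205), and Runx1, which stem cells need to form (-2.08, adjusted p = 0.000628). The mean of either list lay at 7.09 to 7.72 in the arrays without MEC1. Clusters at a level of 7 to 8 without MEC1 had median changes of -0.39 at 21 d and -0.76 at 31 d, near most of these list medians. Over all tested clusters 2.51% fell at 21 d and 21.1% at 31 d, and at the level of Cebpe 54.5% fell at 31 d. Zeb2 and Hoxa9 were not used here because no cluster carried their symbol alone.

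Products of the 2 lineages were set beside their factors. Over all tested clusters 2.51% fell at 21 d and 21.1% at 31 d. At the level of Klf4 4.48% fell at 21 d and 51.9% at 31 d. Clusters at a level of 12 to 13 without MEC1 had a median change of -1.01 at 31 d, and those at 13 to 14 of -0.87. Of 14 monocyte and macrophage genes, 3 fell at 21 d and 11 at 31 d, and none rose (medians -0.79 and -1.26). At 31 d Cd68, a lysosomal protein, changed by -2.49 (adjusted p = 0.00206) and Cx3cr1, the fractalkine receptor, by -2.27 (adjusted p = 0.000348). The mean of these 14 genes lay at 11.4 to 12.9 with MEC1 at 31 d and 13.6 to 13.7 without, a high level in all arrays of cells labelled monocytes and macrophages. Of 18 granule and neutrophil genes none passed at 21 d (median 0.05), and at 31 d 8 fell and 1 rose (median -1.26). Csf3r, the G-CSF receptor, changed by -3.03 (adjusted p = 0.00107) and Ltf, the secondary granule protein lactoferrin, by -2.96 (adjusted p = 0.0471), while Lcn2, another granule protein, rose by 0.95 (adjusted p = 0.0414). The mean of the 18 genes was 10.4 to 12.6 with MEC1 at 31 d and 12.8 to 13.1 without, well above the array medians. Single genes differed widely: at 31 d without MEC1, Mmp9 averaged 4.66 and Cxcr2 6.39, against 17.9 for Mpo and 18.4 for Ngp.

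Genes of other marrow cells moved as well, and their part in the values of the 9 factors was not tested. Over all tested clusters 2.51% fell at 21 d and 21.1% at 31 d. Clusters at a level of 10 to 11 without MEC1 had a median change of -1.06 at 31 d. Those at 6 to 7 and at 7 to 8 had medians of -0.47 and -0.76. Erythroid genes fell most: 5 of 9 at 21 d and 9 of 9 at 31 d (medians -2.87 and -4.74), with a mean level of 5.15 to 5.87 with MEC1 at 31 d and 10.9 to 11.4 without. The water channel Aqp1 changed by -9.10 and the Rh glycoprotein Rhag by -8.84 at 31 d. Of 6 mast cell and basophil genes none passed at 21 d (median -0.56) and 6 fell at 31 d (median -1.54, mean level 7.96 to 9.29 with MEC1 and 10.2 to 10.9 without), with Prss34 at -3.04 and Mcpt8 at -2.71, both proteases. Of 10 dendritic cell genes, 2 fell at 21 d and 4 at 31 d (medians -0.23 and -0.79, mean level 5.69 to 5.89 with MEC1 and 6.74 to 7.13 without at 31 d), led by the lectins Cd209a (-3.72) and Siglech (-2.45).

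Rises too were common, in 1.83% of all tested clusters at 21 d and 22.6% at 31 d, and dim clusters shared them. Clusters at a level of 3 to 4 without MEC1 had median changes of 0.27 at 21 d and 0.54 at 31 d, and those at 4 to 5 of 0.12 and 0.26. Of 7 B lineage and plasma cell genes, 2 rose at 21 d and 4 at 31 d (medians 0.38 and 0.50), with a mean level of 4.97 to 5.37 with MEC1 at 31 d and 4.28 to 4.36 without. The B cell factors Pax5 and Ebf1 rose by 2.23 and 1.57 at 31 d. Whether RNA of the human MEC1 cells was read by these mouse probes was not tested. Of 10 resident macrophage genes, 1 fell at 21 d (median 0.10), and at 31 d 4 rose and 2 fell (median 0.57, mean level 5.76 to 6.16 with MEC1 and 5.58 to 5.60 without). The engulfment receptor Mertk rose by 1.70 and the complement gene C1qa by 1.49, while the macrophage surface protein Adgre1 changed by -1.52 and the mannose receptor Mrc1 by -0.90. Of 5 T and natural killer cell genes, 2 rose at 21 d (median 0.20), and at 31 d 3 rose and 1 fell (median 0.48, mean level 5.59 to 5.82 with MEC1 and 5.57 to 5.80 without). The factors Eomes and Tbx21 rose by 1.20 and 1.17, and the granule gene Nkg7 changed by -2.82. Array intensities have no zero, so none of these markers can be called absent.

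**Figure D5:**
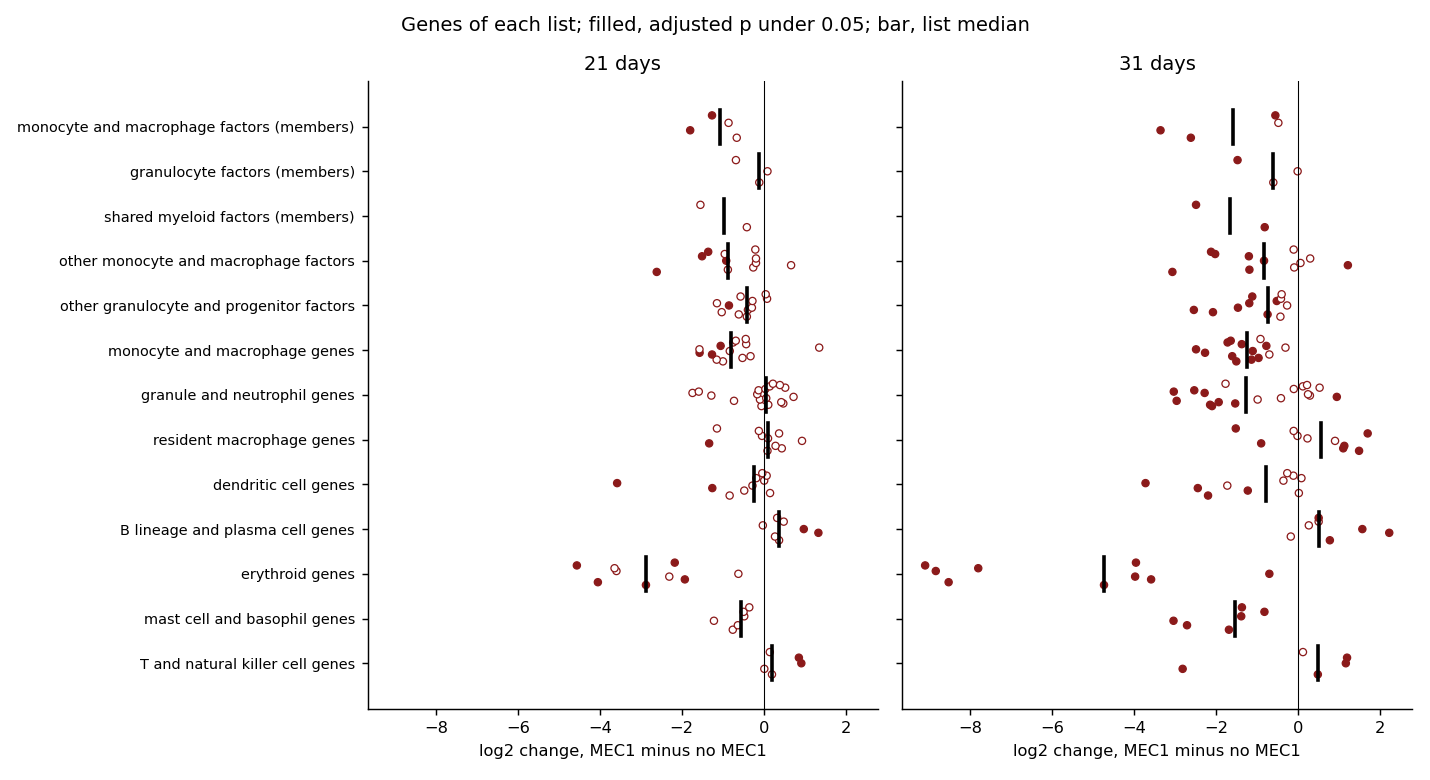
Change with MEC1 (log2, MEC1 minus no MEC1) of each tested gene (points, filled where limma's adjusted p was under 0.05) in 13 lists, with the list median as a bar, at 21 and 31 d. The erythroid list lies lowest, with medians of -2.87 and -4.74, and the B lineage list lies above 0 at 0.38 and 0.50.

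Genes whose course over the 12 arrays was most like that of a factor were found by the root-mean-square distance after each gene was centred on its own mean, among 13726 named genes. This describes likeness in arrays that share their groups and intensity differences. No gene lay within 0.25 log2 of Klf4. The nearest to Klf4 were the linker histone H1f2 (0.311), the stress phosphatase subunit Ppp1r15a (0.330) and the phospholipase D family member Pld4 (0.412). This distance is not scaled to how much a factor varied. The root-mean-square of Klf4 about its own mean was 1.59, against 1.08 for Irf8 and 1.16 for Cebpa, so distances cannot be ranked between factors. Nearest to Irf8 were Rrm1 (0.192), a ribonucleotide reductase subunit, Prim2 (0.204), a primase subunit, and Mcm5 (0.212), a helicase subunit, and 14 genes lay within 0.25. Nearest to Cebpa were Pacs1 (0.207), Dym (0.212) and Lmf2 (0.214).

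Maf was nearest to the cathepsin gene Ctss (0.200), the zinc-finger gene Zfp677 (0.202) and Dock4 (0.207), and Irf4 to Klhl21 (0.160), Stxbp6 (0.174) and the retinoic acid receptor Rara (0.178). Spi1 was nearest to Gna13 (0.110), Abt1 (0.142) and Septin2 (0.142), with 487 genes within 0.25, and Cebpd to Gvin1 (0.124), the hexokinase Hk2 (0.137) and Nek7 (0.138), with 329. Cebpe had 1 gene within 0.25, Zfp273 (0.242), followed by Stat4 (0.273) and Naglu (0.275). Gfi1, which varied little, had 3832 within 0.25, led by Nacc2 (0.0581), Adgra2 (0.0608) and Dab2ip (0.0608). Among the factors themselves the closest were Spi1 and Cebpd (0.379), Maf and Irf4 (0.408) and Spi1 and Maf (0.444), and the farthest were Gfi1 and Klf4 (1.65).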

How the data were processed

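RNA of purified bone marrow monocytes and macrophages was measured on 12 mouse arrays, 1 per mouse. The deposited values are log2 intensities per transcript cluster, made with Affymetrix Expression Console by RMA (versions not given), per the submitters' processing notes. The arrays' quantiles were nevertheless not identical (array medians 3.80 to 4.40), and the step behind this is not given in the sources used here. Of 72688 features, 6732 control features were left out, and 37240 of the remaining 65956 clusters were tested, being above their array's median in at least 3 arrays. Symbols came from the platform's table, with 3365 older ones updated through RefSeq. limma 3.58.1 in R 4.3.3 fitted 4 group means to all 12 arrays, and Benjamini-Hochberg adjustment of two-sided p-values used a threshold of 0.05. The fit was tested on simulated data. The named genes were the 9 factors, in each list the 2 largest rises and falls at 31 d among members that passed, and the 3 genes nearest to each factor. The members and lists were chosen with earlier results of these data known. Alternatives changed normalization, centring, filter, weights, moderation, block, covariate and arrays. The number of arrays limits the precision.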

Additional observations from a re-analysis of the deposited data

How the results depend on the processing

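The falls of Klf4, Irf8, Cebpa and Cebpd at 31 d passed under every alternative run except the hybridisation-control covariate, under which no factor passed and several changes turned sign: at 21 d Spi1 to 0.62, Irf8 to 0.51, Cebpa to 0.31, Cebpd to 0.047, Cebpe to 0.38 and Gfi1 to -0.069; at 31 d Spi1 to 1.01, Cebpa to 0.79 and Cebpe to 0.26; and in the difference of effects Spi1 to 0.39 and Cebpa to 0.48. That covariate lies mostly between groups, so such a fit cannot separate it from MEC1. Quantile normalization turned Cebpe to 0.22 and Gfi1 to -0.082 at 21 d and Cebpe to 0.0083 at 31 d; centring on array medians turned Gfi1 to -0.11 at 21 d. Quantile normalization without the third MEC1 mouse of 31 d, chosen after seeing the data, gave 0.23 for Cebpe and -0.083 for Gfi1 at 21 d and 0.061 for Spi1 and 0.098 for Cebpe at 31 d. Leaving out 1 array gave -0.24 to 0.05 for Cebpe at 21 d and -0.062 to 0.052 for Gfi1 at 31 d.

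The number of factors that fell at 21 d, 2 as reported, was 1 without a filter or with the 6 arrays of that day, 7 with array weights, 0 with the covariate, 4 with quantile normalization without that mouse and 1 to 5 without 1 array. At 31 d, 6 as reported, it was 0 with the covariate, 4 with the 6 arrays of that day and 4 to 6 without 1 array. Clusters that passed at 21 d numbered 1615, against 1066 with quantile normalization, 15923 with weights, 831 with the replicate block, 4 with the covariate, 454 with 6 arrays and 330 to 2883 without 1 array. At 31 d they numbered 16297, against 10646 with quantile normalization (7187 without that mouse), 30065 without a filter, 10483 with the filter at the 70th percentile, 7 with the covariate and 10647 to 16847 without 1 array. For the difference of effects the 1 cluster became 17 with quantile normalization, 1573 with weights, 4 with the covariate and 1 to 5 without 1 array. For time without MEC1 the 3 became 10, 266, 15 and 1 to 12 under the same alternatives, and for time with MEC1 the 84 became 191, 7735, 10 and 7 to 70, with 20 after centring and 15 with the replicate block. The causes were not tested.

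The monocyte minus granulocyte difference at 31 d, -1.06, became -1.45 without Cebpd, -1.48 without Irf4 and, chosen after seeing the data, -0.71 without Gfi1. It rests mainly on Klf4 and Irf8, which changed by -3.36 and -2.62 at 31 d, against -0.55 for Maf and -0.48 for Irf4. Its value without Klf4 or Irf8 is not given here. The pairs of Irf4 or Maf with Cebpe or Cebpd changed the other way at 31 d, by 0.05 to 1.00. Equal mouse numbers mark separate animals, and in 18 same-numbered pairs the deviations correlated at -0.36 to 0.42, above 0.1 in 4, so the numbers do not pair mice; with the replicate block 2 factors fell at 21 d and 5 at 31 d, Spi1 being lost (adjusted p = 0.0518). Each factor had 1 cluster, so no other cluster could be tried. Gfi1 was not tested under the filter at the 70th percentile. With 3 mice per group, the intervals given set the size of change that could be resolved.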
